A study of Mus musculus with 10 samples.

Results

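The subject is a set of amacrine genes, the transcription factors Tfap2a, Tfap2b, Pax6, Ptf1a, Neurod2, Neurod6 and Meis2 and the markers Dab1, C1ql2 and C1ql1, chosen by symbol. Of 10 listed genes, 9 were found among the 19999 rows of the deposited count table, and all 9 passed the filter on low counts. Ptf1a was not analysed here. BALB/c mice, which are albino, gave the retinal RNA for 5 libraries named LD-vehicle, from a model of damage by light, and for 5 control libraries named CTRL-vehicle. Both groups carry the word vehicle in their names. The design text of the series asks how A74 protects the retina, and no library labelled with A74 was analysed here. The labels give no light dose, time after exposure, sex or age. They also do not say whether each library is a different animal, so the p-values reflect library-to-library spread only, which may be technical.

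Amacrine cells are interneurons of the inner retina. They release GABA or glycine onto bipolar, ganglion and other amacrine cells and shape signals by inhibition. In the developing mouse retina Ptf1a, a bHLH factor, directs progenitors to the amacrine and horizontal fates, and the AP-2 factors Tfap2a and Tfap2b act downstream of it. Pax6, a paired box and homeobox factor, stays active in mature amacrine cells. Neurod2 and Neurod6 are bHLH factors of amacrine subsets, and Meis2 is a homeobox factor of GABAergic amacrine cells. Dab1 is the adaptor that carries the reelin signal into the cell and marks AII amacrine cells. C1ql1 and C1ql2 are secreted proteins of the C1q-like family that act at synapses. Several of these genes are also active outside amacrine cells: Pax6 in ganglion cells, Müller glia and lens epithelium, Tfap2a and Tfap2b in horizontal cells, and Tfap2a and Meis2 in the anterior eye.

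Library totals lay between 17900227 and 20337329 counts in light damage and between 14652535 and 20699236 counts in control. Light damage replicates 1 and 2 stood apart, with 17174 and 20414 counts of Xist, the RNA that silences an X chromosome, against 1 to 9 counts in each other library. The same libraries had the highest lens gene levels, with a summed level over 9 tested lens genes of 7519.6 and 4015 CPM (counts scaled to a common library size). The other light damage libraries had sums of 21.4 to 118 CPM, and control libraries had 3.28 to 31.4 CPM. Xist is active in female cells, so sex appears unbalanced between the groups, and its part in the results was not tested. Light damage replicates 1 and 2 held both the high Xist and the highest lens levels, so leaving them out removes both together. The log2 fold changes of the 9 genes and the ratios between them are therefore also given for light damage replicates 3 to 5 alone.

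In light-damaged retina C1ql2, C1ql1 and Dab1 rose, by 26.9%, 25.6% and 19.2%, and none of the 6 transcription factors passed the test in either direction. The threshold for a call was an edgeR quasi-likelihood adjusted p under 0.05, over 16852 genes tested. So 3 of 9 members rose and 0 fell, where 5.32% of all tested genes rose and 7.85% fell, or 896 and 1323 genes. Scaling by library totals alone turned that balance, with 1147 genes higher and 912 lower, and kept the 3 calls among the members. No member had an unadjusted p under 0.05 in the lower direction, and DESeq2 and limma-voom also called 3 members higher and 0 lower. The median log2 fold change was 0.03 over the 9 members and 0.00 over all tested genes. In whole tissue, more cells of a type and more RNA per cell cannot be told apart, nor can fewer cells and less RNA per cell.

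C1ql2 (ENSMUSG00000036907, chromosome 1) is a secreted C1q-domain protein that, in mouse hippocampus, brings kainate receptors to synapses. Its levels were 62.8, 63.3, 67.6, 57.7 and 58.8 CPM in light damage replicates 1 to 5, against 54.0, 49.9, 43.8, 47.0 and 49.7 CPM in control replicates 1 to 5. Every light damage library lay above every control library, which 4.31% of all tested genes showed. Its mean was 62.0 ± 3.95 CPM in light damage, against 48.9 ± 3.78 CPM in control (SD over 5 libraries each). The log2 fold change was fitted as 0.34, with SE 0.07 and an edgeR adjusted p of 0.00488. With light damage replicates 3 to 5 alone it was 0.33, with an adjusted p of 0.0495 by the same edgeR test.

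C1ql1 (ENSMUSG00000045532, chromosome 11), which binds the adhesion receptor Adgrb3 at mouse cerebellar synapses, had 97.7, 93.7, 108, 91.6 and 101 CPM in light damage replicates 1 to 5. In control replicates 1 to 5 it had 94.8, 73.8, 68.5, 71.0 and 82.9 CPM. The groups overlapped through control replicate 1 alone, which lay above light damage replicates 2 and 4. C1ql1 had a mean level of 98.3 ± 6.30 CPM in light damage, against 78.2 ± 10.8 CPM in control (SD over 5 libraries each). The fitted log2 difference was 0.33, with SE 0.08 and an edgeR adjusted p of 0.0158. Without light damage replicates 1 and 2 the log2 fold change was 0.36 and the call was lost, with an adjusted p of 0.076 by edgeR.

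Dab1 (ENSMUSG00000028519, chromosome 4) had 55.3, 54.2, 54.7, 53.6 and 58.3 CPM in light damage replicates 1 to 5, against 47.1, 51.5, 45.7, 42.2 and 45.2 CPM in control replicates 1 to 5. All light damage libraries lay above all control libraries. So 2 of the 9 members had every light damage library above every control library, which 4.31% of tested genes showed. In the other direction 0 members had every light damage library below every control library, which 5.48% of tested genes showed. The mean of Dab1 was 55.2 ± 1.83 CPM in light damage, against 46.3 ± 3.41 CPM in control (SD over 5 libraries each). Its log2 difference was fitted as 0.25, with SE 0.06 and an edgeR adjusted p of 0.0136. With light damage replicates 3 to 5 alone the log2 fold change was 0.26, and the adjusted p of 0.0809 by edgeR no longer passed. All 3 genes kept their calls without any single library, where edgeR's adjusted p reached 0.0177 for C1ql2, 0.0451 for C1ql1 and 0.036 for Dab1.

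**Figure D1:**
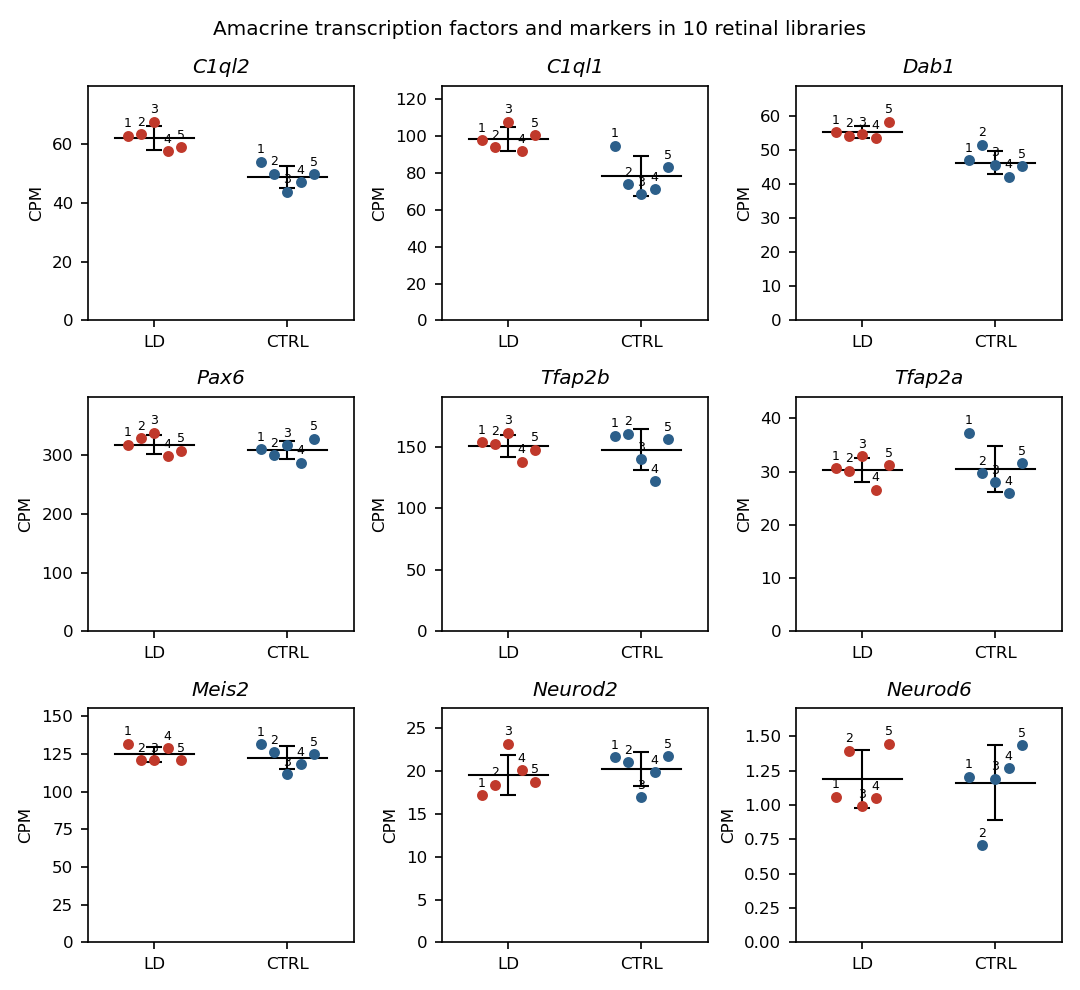
Level of each of the 9 tested genes in CPM, on axes that start at 0, in light damage (LD) and control (CTRL) libraries; points are libraries labelled by replicate number, long lines are means and bars are SD. C1ql2 and Dab1 do not overlap between the groups, C1ql1 overlaps through control replicate 1, and the 6 transcription factors overlap.

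The promoter windows of the rising genes are shown because these genes moved in the same direction. Each window runs from 250 bases before to 50 bases after an annotated start, from RefSeq on GRCm38.p6, 5′ to 3′ on the gene's strand. Such windows were at hand for 9 of the 10 listed genes, 12 windows in all, with none for C1ql1. Capitals mark an E-box, CANNTG, the motif bound by bHLH factors such as Neurod2, or the MEIS motif TGACAG, each searched on both strands. Dab1 has 2 annotated starts.
C1ql2 chr1:120340332-120340631, plus strand: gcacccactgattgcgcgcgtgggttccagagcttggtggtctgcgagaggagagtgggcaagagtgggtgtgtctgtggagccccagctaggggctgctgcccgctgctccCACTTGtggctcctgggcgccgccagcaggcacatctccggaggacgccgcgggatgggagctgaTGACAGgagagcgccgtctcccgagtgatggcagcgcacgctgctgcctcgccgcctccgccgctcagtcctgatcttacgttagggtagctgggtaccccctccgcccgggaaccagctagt
Dab1 chr4:103619250-103619549, plus strand: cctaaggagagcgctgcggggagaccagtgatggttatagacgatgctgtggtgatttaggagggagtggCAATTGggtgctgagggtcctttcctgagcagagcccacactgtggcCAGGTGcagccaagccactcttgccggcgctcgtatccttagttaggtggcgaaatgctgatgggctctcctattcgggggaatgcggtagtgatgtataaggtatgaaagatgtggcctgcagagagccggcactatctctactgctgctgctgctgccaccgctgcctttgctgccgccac
Dab1 chr4:104367288-104367587, plus strand: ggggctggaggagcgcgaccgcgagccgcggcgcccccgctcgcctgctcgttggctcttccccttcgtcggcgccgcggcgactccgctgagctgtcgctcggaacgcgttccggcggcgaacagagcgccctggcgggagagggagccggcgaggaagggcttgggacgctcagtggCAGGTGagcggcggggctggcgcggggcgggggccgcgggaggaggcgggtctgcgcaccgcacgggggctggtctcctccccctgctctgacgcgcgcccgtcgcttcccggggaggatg
The C1ql2 window holds 1 E-box and 1 MEIS motif, and the Dab1 windows hold 2 and 1 E-boxes. None of these matches overlap. An E-box is present in 72.3% of all 32851 promoter windows of this length and the MEIS motif in 19.2%. The E-box was found in 7 of the 12 windows, and the MEIS motif in 3, those of C1ql2, Neurod2 and Pax6. The AP-2 motif GCCNNNGGC, present in 16.6% of all windows, was found in 2 of the 12, in Pax6 and Ptf1a. A match describes these letters and is not a binding site.

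The AP-2 factors were among those that did not pass. Tfap2b (ENSMUSG00000025927, chromosome 1) had 154, 153, 162, 138 and 148 CPM in light damage replicates 1 to 5 and 159, 161, 140.1, 122 and 157 CPM in control replicates 1 to 5. Tfap2a (ENSMUSG00000021359, chromosome 13) had 30.6, 30.2, 32.9, 26.6 and 31.2 CPM in light damage and 37.3, 29.7, 28.0, 26.0 and 31.7 CPM in control. For both genes the light damage libraries lay inside or close to the control range. The log2 fold change of Tfap2b was 0.03, with a 95% interval from -0.13 to 0.18, and that of Tfap2a was -0.01, with an interval from -0.20 to 0.18. Exons of Tfap2a overlap those of the opposite-strand genes Gm26688 and Gm47061, and strand use is not given in the labels. Gm26688 had 17 to 27 counts in light damage and 12 to 32 in control, and Gm47061 had 3 to 15 in light damage and 5 to 14 in control. Tfap2a itself had 481 to 696 counts in light damage and 410 to 742 in control.

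Pax6 (ENSMUSG00000027168, chromosome 2) was the most abundant of the transcription factors per transcript length. It had 317, 328, 338, 298 and 307 CPM in light damage replicates 1 to 5 and 309.9, 299.8, 316, 287 and 328 CPM in control replicates 1 to 5. The groups overlapped over most of their ranges, and the log2 fold change was 0.04, with a 95% interval from -0.08 to 0.17. In light damage replicates 1 and 2, where lens genes were highest, Pax6 lay within the range of light damage replicates 3 to 5. Meis2 (ENSMUSG00000027210, chromosome 2) had 132, 121, 121, 129 and 121 CPM in light damage and 132, 126, 112, 118 and 125 CPM in control. Its log2 fold change was 0.02, with an interval from -0.10 to 0.14. Among Pax6, Meis2, Tfap2b and Tfap2a the highest upper bound was 0.18, and the rising genes had log2 fold changes of 0.25 to 0.34. The 95% intervals of the rising genes began at 0.13 for Dab1, 0.16 for C1ql1 and 0.21 for C1ql2. So those of Dab1 and C1ql1 reached below 0.18, and the difference between these factors and the rising genes was not tested.

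Neurod2 (ENSMUSG00000038255, chromosome 11) had 17.2, 18.4, 23.2, 20.1 and 18.8 CPM in light damage replicates 1 to 5 and 21.6, 21.0, 16.9, 19.9 and 21.7 CPM in control replicates 1 to 5. The lowest library was a control and the highest a light damage library. Its log2 fold change was -0.05, with a 95% interval from -0.25 to 0.15, and its sign turned with light damage replicates 3 to 5 alone, where it was 0.04. Neurod6 (ENSMUSG00000037984, chromosome 6), a factor of amacrine cells that use neither GABA nor glycine, had the lowest counts of the members. It had 19, 27, 21, 19 and 26 counts in light damage and 24, 11, 22, 20 and 21 counts in control. Its log2 fold change was 0.03, with an interval from -0.47 to 0.54, so a change of the size seen for C1ql2 was not detectable at this depth. By edgeR the 6 factors had adjusted p between 0.647 for Pax6 and 0.95 for Tfap2a. With light damage replicates 3 to 5 alone, Pax6 was at 0.03, Tfap2b at 0.02, Meis2 and Tfap2a at 0.01 and -0.01 and Neurod6 at -0.00 on the log2 scale, and none was called.

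**Figure D2:**
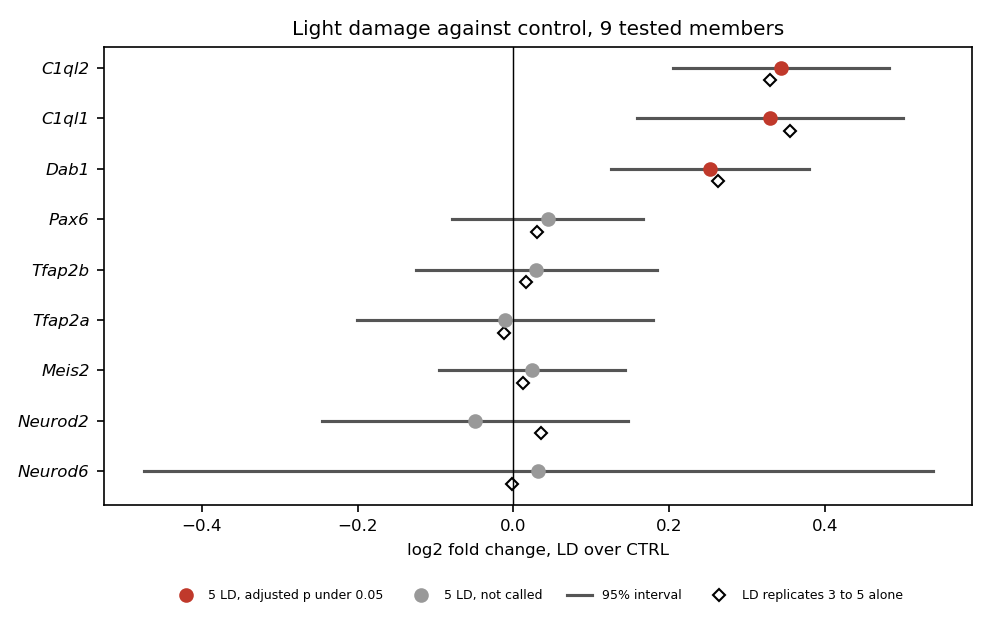
Log2 fold change of light damage over control for each of the 9 tested genes, with 95% intervals from edgeR's quasi-likelihood fit (filled points and lines) and the value with light damage replicates 3 to 5 alone (open diamonds). The intervals of C1ql2, C1ql1 and Dab1 lie above 0 and those of the 6 transcription factors span 0.

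Levels of different genes were compared as CPM per kilobase of the longest annotated transcript. By control level the order from high to low was Pax6, C1ql1, Tfap2b, C1ql2, Meis2, Dab1, Tfap2a, Neurod2 and Neurod6. On this scale Pax6 had 71.7 ± 3.62 in light damage and 69.6 ± 3.50 in control, and C1ql1 had 66.7 ± 4.28 in light damage and 53.1 ± 7.31 in control (SD over 5 libraries each). Below them C1ql2 had 31.0 ± 1.97 in light damage and 24.4 ± 1.89 in control, Tfap2b had 25.7 ± 1.47 in light damage and 25.2 ± 2.81 in control, and Meis2 had 22.7 ± 0.947 in light damage and 22.3 ± 1.40 in control. A lower tier held Dab1, with 10.5 ± 0.347 in light damage and 8.78 ± 0.646 in control, Tfap2a, with 8.69 ± 0.661 in light damage and 8.76 ± 1.24 in control, and Neurod2, with 6.21 ± 0.732 in light damage and 6.44 ± 0.634 in control. Neurod6 was lowest, with 0.554 ± 0.0993 in light damage and 0.541 ± 0.127 in control. Neighbours whose control ranges overlapped were Tfap2b and C1ql2, C1ql2 and Meis2, and Dab1 and Tfap2a. The order of the means differed between the groups for C1ql2 and Tfap2b. C1ql2 lay above Tfap2b in 5 of 5 light damage libraries and in 1 of 5 control libraries. Dab1 had the higher mean than Tfap2a in both groups, and lay above it in 5 of 5 light damage libraries and in 3 of 5 control libraries. The order between genes depends on the transcript length used, and the change between groups does not.

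Ratios were taken between related members. A ratio of the counts of a pair within a library does not depend on how totals are scaled. The log2 ratios were taken from log2 CPM with a prior count of 2, so this holds only approximately at low counts, as for Neurod6. These ratios were compared by an exact two-sided permutation test over the 10 libraries, with Benjamini-Hochberg adjustment over the 3 ratios. The log2 ratio of C1ql2 to C1ql1 was -0.66 ± 0.07 in light damage and -0.67 ± 0.10 in control (SD, n = 5 each), a difference of 0.01 with an exact adjusted p of 0.929 and a 95% interval from -0.13 to 0.16. For Tfap2a to Tfap2b it was -2.31 ± 0.05 in light damage and -2.27 ± 0.13 in control, a difference of -0.04 with an interval from -0.19 to 0.10. For Neurod2 to Neurod6 it was 3.92 ± 0.34 in light damage and 4.02 ± 0.39 in control, and the interval of the difference, from -0.64 to 0.42, was the widest of the 3. None of the 3 differences passed the test, and the exact adjusted p was 0.929 for each. With light damage replicates 3 to 5 alone the differences were -0.03 for C1ql2 to C1ql1, -0.03 for Tfap2a to Tfap2b and 0.02 for Neurod2 to Neurod6, and none passed.

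Pax6 counts of the same library gave a measure that needs no scaling, chosen after the values were seen and given without a test. Per 100 Pax6 counts, C1ql2 had 19.8, 19.3, 20.0, 19.4 and 19.2 counts in light damage replicates 1 to 5 and 17.4, 16.6, 13.9, 16.4 and 15.2 counts in control replicates 1 to 5. The light damage libraries lay above all controls and within a narrow range. C1ql1 had between 28.6 and 32.7 counts in light damage and between 21.7 and 30.6 in control, and Dab1 between 16.2 and 19.0 in light damage and between 13.8 and 17.2 in control, each with an overlap through 1 control library. Tfap2b had between 46.4 and 48.5 counts per 100 Pax6 counts in light damage, inside the control range of 42.7 to 53.6. Meis2 had between 35.8 and 43.3 in light damage and between 35.3 and 42.5 in control.

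**Figure D3:**
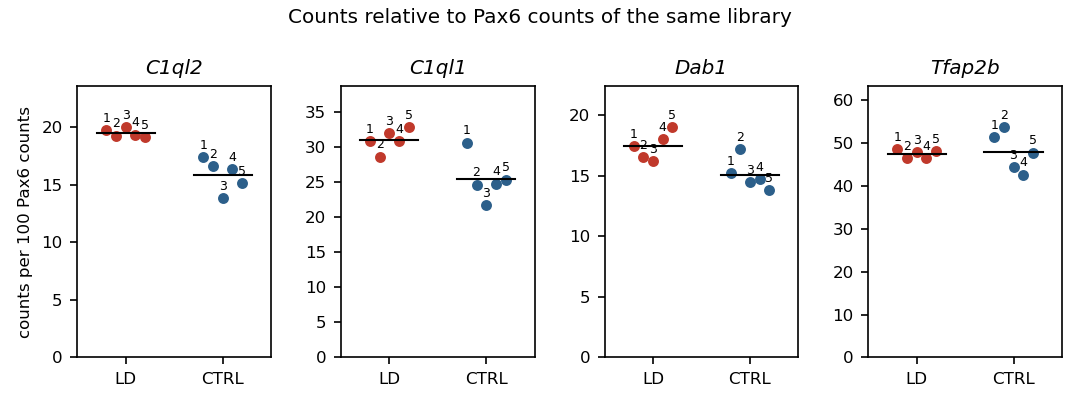
Counts of C1ql2, C1ql1, Dab1 and Tfap2b per 100 Pax6 counts of the same library, on axes that start at 0, in light damage (LD) and control (CTRL); points are libraries labelled by replicate number and lines are means. C1ql2 separates the groups, at 19.2 to 20.0 in light damage against 13.9 to 17.4 in control, and Tfap2b does not.

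Genes that work with the rising members were mostly not called, as were most tested genes, of which 5.32% rose and 7.85% fell. Of 4 receptors and synaptic partners of C1q-like proteins, 0 passed by edgeR's quasi-likelihood test in either direction. Adgrb3 alone had an unadjusted p under 0.05, DESeq2 called 1 gene higher and limma-voom called 0. Adgrb3, the receptor of C1ql1, had a mean level of 46.0 ± 2.24 CPM in light damage, against 40.5 ± 2.97 CPM in control (SD over 5 libraries each). The fitted log2 difference was 0.18, with SE 0.06 and an edgeR adjusted p of 0.0673. The neurexin gene Nrxn3 and the kainate receptor subunit genes Grik2 and Grik4 had log2 fold changes of 0.11, -0.09 and -0.08. Of 12 genes of the reelin pathway around Dab1, 1 rose and 0 fell by edgeR, and 1 had an unadjusted p under 0.05 in the lower direction, against 0 called lower by DESeq2 and by limma-voom. The gene that rose was Fyn, the kinase that phosphorylates Dab1, which had a mean level of 60.0 ± 3.03 CPM in light damage, against 51.5 ± 5.06 CPM in control (SD over 5 libraries each). Its fitted log2 difference was 0.22, with SE 0.07 and an edgeR adjusted p of 0.0439, and 7 of the 10 fits lacking a single library did not call it, up to an edgeR adjusted p of 0.103 when light damage replicate 3 was dropped. Vldlr, a reelin receptor, had a log2 fold change of -0.19 (adjusted p = 0.0994 by edgeR), Rnf7, a subunit of the ligase that degrades Dab1, 0.18, and Src, a kinase related to Fyn, 0.12. The median over the pathway was 0.00.

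Paralogs of the members were examined next. Of 10 tested paralogs 1 rose and 0 fell by edgeR, where 5.32% of all tested genes rose and 7.85% fell. In the lower direction 1 paralog had an unadjusted p under 0.05, against 0 called lower by DESeq2 and by limma-voom. Neurod4, a bHLH factor of amacrine and bipolar cell development, had a mean level of 171 ± 13.2 CPM in light damage, against 138 ± 17.5 CPM in control (SD over 5 libraries each). On the log2 scale this came to 0.31, with SE 0.08 and an edgeR adjusted p of 0.0252. Its call was lost without light damage replicate 1, 2 or 3, with an adjusted p up to 0.0735 without replicate 3. C1ql3, the third C1q-like gene tested, had 19.1 ± 0.98 CPM in light damage, against 20.0 ± 0.619 CPM in control (SD over 5 libraries each). Its log2 fold change was -0.07, with a 95% interval from -0.22 to 0.07. The difference between C1ql3 and the rising C1q-like genes was not tested. Tfap2c, Tfap2d and Tfap2e, the other AP-2 factors tested, had log2 fold changes of 0.15, 0.11 and 0.17, and Meis1 and Meis3 of 0.02 and -0.04. Neurod1, a bHLH factor also active in photoreceptors, was at -0.06, Dab2, an endocytic adaptor, at 0.25 and Pax2, a paired box factor of optic nerve astrocytes, at -0.69 (adjusted p = 0.0885 by edgeR).

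Of 12 tested partners of the transcription factors 0 rose and 0 fell by edgeR, where 5.32% of all tested genes rose and 7.85% fell. DESeq2 and limma-voom also called 0 partners in either direction. In the higher direction 3 had an unadjusted p under 0.05, and in the lower direction 0. Pbx2, a homeobox cofactor of MEIS proteins, had 53.0 ± 1.44 CPM in light damage, against 48.7 ± 2.06 CPM in control (SD over 5 libraries each), and its edgeR adjusted p was 0.135. Pknox2, a homeobox factor related to MEIS, Cited4, a coactivator of AP-2 factors, and Kctd15, an inhibitor of AP-2, had log2 fold changes of 0.24, 0.47 and -0.11 and were not called. The median over the partners was -0.00.

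Other amacrine genes were examined as 2 lists, whose contrast with the members was not tested. Of 24 other amacrine transcription factors 5 rose and 1 fell, where 5.32% of all tested genes rose and 7.85% fell. The median log2 fold change of this list was 0.15, against 0.00 over all tested genes. Lmo4, a LIM-only cofactor, had a mean level of 53.8 ± 3.51 CPM in light damage, against 44.1 ± 3.71 CPM in control (SD over 5 libraries each). The fitted log2 difference was 0.29, with SE 0.07 and an edgeR adjusted p of 0.014. Prdm13, a zinc finger factor of amacrine specification, rose by 0.28 on the log2 scale, with a call lost only without light damage replicate 3 among single libraries, at an adjusted p of 0.0533 by edgeR. Bhlhe22, a bHLH factor of amacrine and bipolar subsets, rose by 0.22, and 6 of the 10 fits lacking a single library did not call it, up to an adjusted p of 0.101 when light damage replicate 1 was dropped. Neurod4 is also in this list, and Isl1, a homeobox factor of cholinergic amacrine, bipolar and ganglion cells named after its values were seen, rose by 0.19 and was called in 2 of the 10 fits. Nr4a2, a nuclear receptor of dopaminergic amacrine cells that is also an activity-induced gene, fell by 0.39, and 8 of these fits did not call it, up to an adjusted p of 0.114 when light damage replicate 2 was dropped. With light damage replicates 3 to 5 alone Prdm13 was the gene of this list that stayed called, at an adjusted p of 0.0452 by edgeR.

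Of 26 transmitter and subtype markers of amacrine cells 7 rose and 0 fell, where 5.32% of all tested genes rose and 7.85% fell. The median log2 fold change of these markers was 0.17, against 0.00 over all tested genes. DESeq2 and limma-voom also called 0 of the markers lower, and none of them had an unadjusted p under 0.05 in that direction. Slc32a1 and Gad1, of GABA storage and synthesis, rose by 0.35 and 0.31 on the log2 scale, with adjusted p of 0.00465 and 0.0118 by edgeR, beside 0.34 and 0.33 for C1ql2 and C1ql1. Cck, a neuropeptide gene, had a mean level of 19.7 ± 1.72 CPM in light damage, against 14.6 ± 1.01 CPM in control (SD over 5 libraries each). The log2 difference came to 0.43, with SE 0.08 and an edgeR adjusted p of 0.00518. Penk, an opioid precursor gene, had a log2 fold change of 2.50 with overlapping groups, and 7 of the 10 fits lacking a single library did not call it, up to an adjusted p of 0.0628 when control replicate 5 was dropped. Vip, Npy and Ppp1r17 were the others that rose, the first pair named after their values were seen; edgeR called Vip and Npy in 5 and Ppp1r17 in 2 of the same 10 fits. With light damage replicates 3 to 5 alone 3 genes of this list were higher, with Slc32a1 and Cck among them, and Gad1 had an edgeR adjusted p of 0.0627.

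**Figure D4:**
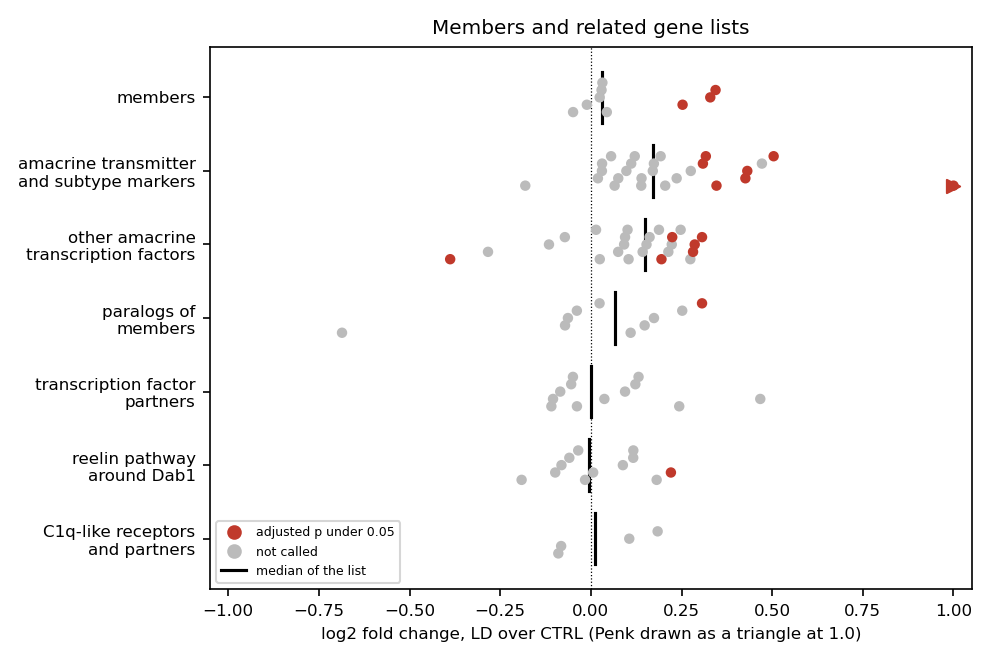
Log2 fold change of light damage over control for the 9 tested members and 6 related gene lists; each point is a gene, red where the adjusted p was under 0.05 by edgeR's quasi-likelihood test, and black bars are list medians. Penk, at 2.50, is drawn as a triangle at the right edge; the amacrine marker and factor lists have medians of 0.17 and 0.15, and the members a median of 0.03.

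The genes nearest in pattern to each rising member were found by the root mean square difference of log2 CPM over the 10 libraries, each gene centred on its own mean, among 15568 other tested genes with at least 1 CPM. Nearest to C1ql2 were Hsp90ab1, a cytosolic chaperone, Galk2, a sugar kinase, and Eef1a2, a neuronal elongation factor, at a difference of 0.05 each, where C1ql2 itself varied by 0.19 about its mean. Nearest to C1ql1 were Basp1, a membrane protein of growing axons, Ppp1r17, a marker of the same amacrine cells as Neurod6, and Cxcl14, a chemokine, at 0.07 each, with C1ql1 varying by 0.22. Nearest to Dab1 were Pcdhb7, a protocadherin, Asic2, an acid-sensing channel, and Pard3, a polarity protein, at 0.05 each, with Dab1 varying by 0.15. These 9 genes were chosen for likeness to members that rose, so their own direction is no separate result.

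Some markers of other cells were called as well by edgeR, where 5.32% of all tested genes rose and 7.85% fell. The part of these markers in the results above was not tested. Among 6 markers of horizontal cells Calb1 and Sept4 rose and 0 fell, with summed levels of 281 to 309 CPM in light damage and 242 to 274 CPM in control. Neither was called without light damage replicate 1, or with light damage replicates 3 to 5 alone, and edgeR called Calb1 in 9 and Sept4 in 3 of the 10 fits lacking a single library. Of 10 Müller glia markers 4 rose and 0 fell, with sums of 5485 to 7717 CPM in light damage and 4164 to 5534 CPM in control, and 1 was called with light damage replicates 3 to 5 alone. Of 11 ganglion cell markers 0 passed by edgeR, 2 had an unadjusted p under 0.05, DESeq2 called 1 and limma-voom 0, and sums were 1343 to 1456 CPM in light damage and 1155 to 1606 CPM in control. Of 12 rod genes Sag rose, in the full fit and in 2 of the 10 fits lacking a single library, and 0 fell, with a median log2 fold change of -0.13 and sums of 63447 to 88809.9 CPM in light damage and 68389.6 to 110204 CPM in control. Of these rod genes 3 had a positive log2 fold change, and 2 had an unadjusted p under 0.05 in the lower direction by edgeR. With the replicate number as a block 3 were called lower, and DESeq2 and limma-voom called 0 lower. All 9 tested lens genes had a positive fold change, and the number called higher was 3 by edgeR, 9 by DESeq2 and 0 by limma-voom. Without a single library edgeR called 0 to 8 of them. Of 9 tested genes of pigment epithelium, iris and ciliary body 0 passed by edgeR, 4 had an unadjusted p under 0.05, DESeq2 called 2 and limma-voom 0, with sums of 59.9 to 300.1 CPM in light damage and 30.0 to 84.2 CPM in control. None of these markers was at 0 in every library, and corneal keratins were not analysed here. Without light damage replicates 1 and 2, in which lens genes were highest, the log2 fold changes of C1ql2, C1ql1 and Dab1 were 0.33, 0.36 and 0.26. By edgeR C1ql2 alone stayed called there, at an adjusted p of 0.0495, against 0.076 for C1ql1 and 0.0809 for Dab1. Lens sums in the remaining light damage libraries were 21.4 to 118 CPM, against 3.28 to 31.4 CPM in control.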

How the data were processed

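Retinal RNA was sequenced in 5 light damage and 5 control libraries, grouped by the library names in the labels. The authors deposited 1 table of whole-number counts per gene for 19999 genes. Per the submitters' processing notes, Bowtie2, RSEM 1.3.1 and DESeq2 1.4.5 were used with the build GRCm39, with no role stated for each. Whether the values are rounded estimates from RSEM, and how strands or near-identical genes were treated, is not stated in the labels. Ensembl identifiers were matched to GENCODE M21, an annotation of GRCm38, for symbols, and 19892 had one. Members and lists were chosen with earlier results of these data known. In the list of transcription factor partners 1 gene is not reported here and was left out.

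Genes were kept by filterByExpr, which left 16852, holding 99.8042% to 99.9239% of a library's counts. Counts were scaled by TMM and tested with the robust quasi-likelihood test of edgeR 4.0.16 in R 4.3.3, with group as the single term, Benjamini-Hochberg adjustment over all tested genes and a threshold of 0.05. Standard errors and 95% intervals were derived from the F statistic. Printed CPM include the TMM factors, and a prior count of 2 was added for log2 CPM. Intervals of ratios hold the shifts that the exact permutation test did not reject. With 5 libraries a group that test cannot give a p below 0.00794. The steps were tested on simulated counts with 50 changed genes of each size. Recovery was 20% for changes of 1.25-fold, 58% for 1.5-fold, 82% for 2-fold and 100% for 4-fold, with 10 false calls. Alternatives were DESeq2 1.42.0, limma-voom (limma 3.58.1), other scalings and filters, no robust dispersion, the replicate number as a block, and fits without libraries. Named genes were the members, up to 4 genes per list with the lowest p, up to 2 called against a list's main direction, the tested paralogs, and the 3 nearest in pattern to each called member. No libraries were duplicates, with chi-square per degree of freedom of at least 6.09 within groups. Figures were drawn with matplotlib 3.10.9 in Python 3.11.15.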

Additional observations from a re-analysis of the deposited data

Results flagged for a closer look

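One value lay far from the others of its group. Neurod2 had 5.35 counts per 100 Pax6 counts in control replicate 3, the lowest control, with a gap to the next control of 0.77 of the group's range. Its values were 5.41 to 6.87 in light damage and 6.63 to 7.01 in the other controls. Gaps were examined in 66 sets of 5 libraries, where chance alone gives about 1 such gap in 20.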

How the results depend on the processing

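The count of 3 members higher and 0 lower was the same under all 20 alternatives except without light damage replicates 1 and 2 together, where 1 was higher. C1ql2 was called under all 20 alternatives, and C1ql1 and Dab1 under 19. Without those replicates 135 genes were higher and 268 lower over the whole table, with 1 other amacrine factor, 3 transmitter markers, 0 paralogs and 0 reelin genes higher and 0 amacrine factors lower. Over all genes, 896 were higher and 1323 lower, against 1348 higher with DESeq2. With library totals alone 1147 were higher and 912 lower, a share of 55.7% higher against 40.4% with TMM scaling, and the median log2 fold change of all genes was 0.03. That setting gave 0 amacrine factors lower and 2 reelin genes higher. Without a filter on low counts 0 amacrine factors were lower. Without robust dispersion 0 amacrine factors were lower and 0 reelin genes higher, limma-voom called 0 reelin genes higher, and DESeq2 called 1 C1q-like partner higher.

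Leaving out single libraries gave 399 to 1347 genes higher and 723 to 1644 lower. The lists ranged from 1 to 6 amacrine factors higher and 0 to 1 lower, 3 to 8 transmitter markers higher, 0 to 1 paralogs higher and 0 to 1 lower, 0 to 1 reelin genes higher and 0 to 1 lower, and 0 to 1 C1q-like partners higher. The lowest count of amacrine factors came without light damage replicate 3, and the lowest of transmitter markers without light damage replicate 4 or control replicate 4. No ratio of paired members passed under any alternative run.

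Whether libraries of the same number form pairs was not settled. Their deviations from the group means correlated at 0.05 to 0.32, and 2 of 5 light damage libraries correlated best with their own number. With so few libraries these values cannot decide it. With the replicate block 1431 genes were higher and 1854 lower, with 2 amacrine factors lower, 1 factor partner higher, 2 reelin genes higher and 1 lower, and it changed no call of a member. Depth limits Neurod6, at 11 to 27 counts a library.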
